A study of Mus musculus with 6 samples.

Results

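Bile duct epithelial cells, called cholangiocytes, line the channels that carry bile out of the liver, and they form a small part of the organ. The 9 genes described here are made by those cells or by the progenitor and reactive ductal cells related to them: Krt7, Krt8, Krt18, Krt19, Krt23, Epcam, Spp1, Sox9 and Tff3. Of these, Krt8 and Krt18 are also the main keratin pair of hepatocytes, so in whole liver they do not mark ducts. The 9 genes were taken by gene symbol from the 55573 genes of the deposited table, and all 9 were present. Liver RNA carrying a polyA tail was sequenced from mice of generation 3, kept on normal feed, in 2 genotypes with 3 libraries each. The control group, DKO, was described as mTR-/-Wrn-/-, and the other group, p21TKO, as p21-/-mTR-/-Wrn-/-. Both groups therefore share the loss of mTR, which encodes the RNA template of telomerase, and of Wrn, a RecQ helicase. p21TKO alone carries the loss of p21 (Cdkn1a), a cyclin-dependent kinase inhibitor, and its mice were described as already progeroid. No library with intact mTR and Wrn was analysed here, and the labels do not say whether replicates came from separate animals. All 6 titles carry the code L_2M, whose meaning is not spelled out, and no age is given otherwise. The p-values therefore measure the spread between these libraries, which may be technical. Values are FPKM, fragments scaled to gene length and to library depth, so levels may be compared between genes. In whole liver RNA, fewer cells of a type and less RNA per cell cannot be told apart.

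Keratins are intermediate filament proteins that assemble as pairs of a type II and a type I chain. Hepatocytes hold mainly the pair Krt8 (type II) and Krt18 (type I), whereas cholangiocytes add Krt7 (type II) and Krt19 (type I). Krt23 is a further type I keratin that is low in normal liver. Epcam is an adhesion molecule of the bile duct surface, and Sox9 is the transcription factor that marks the ductal lineage from its origin in the embryo. Spp1 encodes osteopontin, a secreted phosphoprotein that binds integrins and CD44, and Tff3 encodes a trefoil peptide secreted with mucus.

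The depth and the labels were checked first. The FPKM denominators stood between 19363283 and 27061289 reads per library, and between 18271 and 19535 genes were above 0. All 6 libraries held Cdkn1a reads, at 0.761, 1.79 and 0.405 FPKM in DKO and at 1.41, 11.1 and 6.5 FPKM in p21TKO, so its level was not lower in p21TKO. Which part of Cdkn1a was deleted was not given in the sources used here, so these values cannot check the genotype, and every direction below rests on the labels. Wrn stood at 0.197 to 0.294 FPKM and Terc, the mTR gene, at 0 in all 6 libraries. Without a library of intact mTR and Wrn, these values cannot check the genotype either. Y-linked transcripts were found in DKO replicates 2 and 3 and p21TKO replicate 1 only, so sex is unevenly spread over the genotypes. All 18 hepatocyte markers listed, such as Alb and Ttr, were above the filter on low values.

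Promoters are shown for 4 of the genes: Epcam and Krt18, whose groups did not overlap, Krt8, the filament partner and neighbour of Krt18, and Spp1, the secreted gene with an entry and the only one of the 6 with a TATA box among the motifs searched. The sequences are from RefSeq (GRCm38.p6), which had an entry for 6 of the 9 genes. Krt19, Sox9 and Tff3 had none. Each stretch runs 5′ to 3′ on the gene's own strand, within the 250 bases before the RefSeq start, and stops before any base that GENCODE M21 places in an exon. Capitals mark a searched motif. Epcam is shown at chr17:87635729-87635978 on the plus strand, Krt18 at chr15:102027966-102028179 on the plus strand, Krt8 at chr15:102004483-102004592 on the minus strand and Spp1 at chr5:104434861-104435110 on the plus strand.
Epcam: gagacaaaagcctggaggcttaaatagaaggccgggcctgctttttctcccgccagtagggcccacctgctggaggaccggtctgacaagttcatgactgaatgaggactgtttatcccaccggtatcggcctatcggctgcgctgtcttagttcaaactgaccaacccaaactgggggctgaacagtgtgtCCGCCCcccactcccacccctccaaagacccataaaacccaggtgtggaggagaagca
Krt18: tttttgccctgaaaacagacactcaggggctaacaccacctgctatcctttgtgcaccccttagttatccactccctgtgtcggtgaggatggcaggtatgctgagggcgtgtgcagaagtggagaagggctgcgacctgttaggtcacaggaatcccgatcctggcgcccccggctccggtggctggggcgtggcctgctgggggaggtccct
Krt8: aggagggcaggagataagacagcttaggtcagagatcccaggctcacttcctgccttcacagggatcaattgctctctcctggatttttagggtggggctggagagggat
Spp1: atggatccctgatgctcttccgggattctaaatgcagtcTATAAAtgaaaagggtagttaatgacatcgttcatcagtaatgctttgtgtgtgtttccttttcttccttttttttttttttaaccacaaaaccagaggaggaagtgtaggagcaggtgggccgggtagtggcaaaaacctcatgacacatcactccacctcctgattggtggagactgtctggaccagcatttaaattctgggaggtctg

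The motifs were searched on both strands over the full 250 bases before each start. They were the TATA box (TATAAA, in 12.3% of 32536 mouse promoters of the same length), the GC box (GGGCGG, 33.0%), the TEAD core (GGAATG, 12.6%), the RBPJ core of Notch signalling (TGGGAA, 21.6%), the SOX core (ACAATG, 10.5%) and the AP-1 core (TGANTCA, 6.73%). No 2 of these overlap in the promoters shown. Epcam held 1 GC box, 58 bases before the start and printed as its reverse complement, and Spp1 held a TATA box 211 bases before the start. A second Spp1 start in RefSeq held no motif. Krt7, the gene with the largest read ratio between groups, held 4 GC boxes, at 141, 128, 56 and 24 bases before the start, in a window of 66.0% G and C against a median of 52.4% over all promoters. That window is not printed because GENCODE places 205 of its bases in exons. Krt8 held 1 RBPJ core, 134 bases before its RefSeq start and outside the stretch printed, Krt23 held 1 SOX core, and Krt18 held none of the 6 motifs. The TEAD core was absent from every window of the 6 genes. These matches describe letters only.

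Mean levels spanned more than 3 orders of magnitude. Over the 6 libraries, Krt18 averaged 150.6 FPKM and Krt8 117 FPKM, and the ranges of these neighbours in the order overlapped. Tff3 at 20.2 FPKM and Spp1 at 12.6 FPKM followed, with ranges that overlapped each other and lay below every Krt8 value. Krt19 (0.880 FPKM), Sox9 (0.671 FPKM), Krt23 (0.256 FPKM), Epcam (0.234 FPKM) and Krt7 (0.0948 FPKM) came last, and each overlapped the next. Every library had less Krt19 than any library had Spp1, whereas Tff3 in DKO replicate 1, at 0.675 FPKM, was below Krt19 in p21TKO replicates 1 and 2 and below Sox9 in all p21TKO libraries. The first 4 genes passed the filter of a mean of at least 1 FPKM used for testing, and the other 5 did not.

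No gene of the 9 passed the test between genotypes, and 5 of the 9 had groups that did not overlap, all 5 higher in p21TKO. In the limma test on log2(FPKM + 1), 0 of the 4 genes tested were called at an adjusted p under 0.05, against 0.0734% of the 9538 genes tested. At an unadjusted p under 0.05 there were 0 of the 4 and 895 of all genes tested. The 5 separated genes were Krt18, Krt7, Krt19, Epcam and Sox9. Among all 17307 genes with at least 10 reads, 7.15% were separated with p21TKO higher and 8.42% with p21TKO lower. No gene of the 9 was separated with p21TKO lower, and Krt8, Krt23, Spp1 and Tff3 overlapped. Whole reads could be recovered from FPKM and gene length, and a limma voom fit on them, added after the values were seen, took in all 9 genes. It called 0 of the 9, with 0.0289% of all genes called. At an unadjusted p under 0.05 it had 3 of the 9, Krt7, Krt19 and Sox9, all higher in p21TKO, where 3.35% of all genes were. Krt7, with 5 reads in DKO and 87 in p21TKO, reached the limit of 10 reads through p21TKO only. The 3 of 9 are therefore given as a description. In that fit 7 of the 9 differences were above 0 with a median of 0.57 on the log2 scale, against 49.1% above 0 and a median of -0.01 over all genes.

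**Figure D1:**
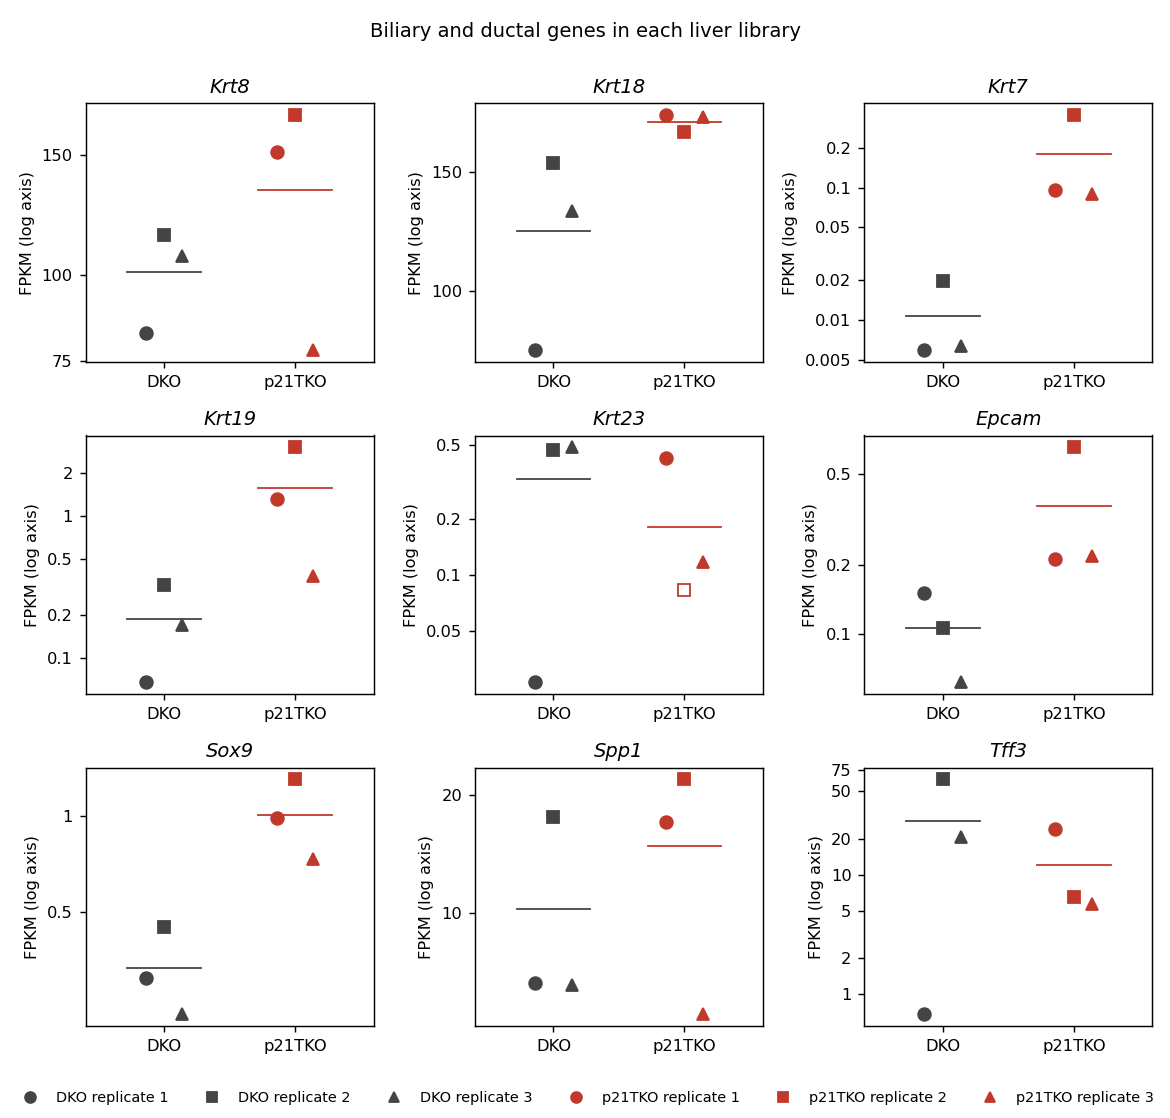
FPKM of each of the 9 genes on a log axis in the 3 DKO (grey) and 3 p21TKO (red) libraries, with the replicate number as symbol and the group mean as a line; the open symbol for Krt23 stands at the 0.0835 FPKM that 3 reads would give, since that library had none. Krt18, Krt7, Krt19, Epcam and Sox9 have all p21TKO points above all DKO points, and p21TKO replicate 2 is the highest library for 6 of the 9 genes.

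Krt18, the type I chain of the hepatocyte keratin pair, was higher in all 3 p21TKO libraries than in any DKO library, by a margin that did not pass the test. Krt18 (ENSMUSG00000023043, chromosome 15, 102028180 to 102032027, plus strand, GRCm38) stood at 81.5, 155 and 132 FPKM in the DKO libraries, in replicate order (2814, 4795 and 4202 reads), and at 182.5, 172 and 181 FPKM in p21TKO (5078, 5674 and 7040 reads). The p21TKO libraries lay close together, and DKO replicate 1 lay far below its group. The nearest libraries of the 2 groups differed 1.11-fold. Group means were 123 ± 37.6 and 179 ± 5.68 FPKM (SD, n = 3 each), a ratio of 1.46, and the log2 difference was 0.59 with an SE of 0.31 (limma adjusted p = 0.564). Without DKO replicate 1 the difference was 0.32.

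Krt8, the type II partner, overlapped between genotypes. Krt8 (ENSMUSG00000049382, chromosome 15, 101996698 to 102004482, minus strand) stood at 82.6, 114 and 107 FPKM in DKO and at 151, 171 and 77.8 FPKM in p21TKO, so that p21TKO held both the highest libraries and the lowest one. Means were 101 ± 16.6 and 133 ± 49.2 FPKM (SD, n = 3 each), and the log2 difference was 0.33 with an SE of 0.36 (limma adjusted p = 0.753). A processed pseudogene, Krt8-ps, is 98.6% identical to Krt8 over 941 bases and stood at 0.393 to 2.9 FPKM, so some reads may be split between the 2 by the authors' counting.

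Both chains of a filament are needed in comparable amounts, so their ratio was taken within each library, where scaling between libraries cancels. Krt8 divided by Krt18 was 1.01, 0.738 and 0.810 in DKO and 0.828, 0.996 and 0.430 in p21TKO. p21TKO replicate 3 had the lowest ratio, with the Krt18 level of its group but the lowest Krt8 level of all libraries. The log2 ratio averaged -0.24 ± 0.24 in DKO and -0.50 ± 0.64 in p21TKO (SD, n = 3 each), a difference of -0.26 that an exact two-sided permutation test over libraries gave p = 0.8, where 0.1 is the smallest p that 3 against 3 allows. Without p21TKO replicate 3 the difference was 0.10, in the other direction. The 2 genes lie with their starts 23.7 kb apart on opposite strands. Pearson's r between their log2(FPKM + 1) values over the 6 libraries was 0.5, given as a description.

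These 2 keratins made up nearly all keratin RNA. Of 53 protein-coding Krt genes in the table, 39 had no read in any library, and 7 had at least 10 reads in all. Krt8 and Krt18 together held 98.8% to 99.5% of the summed keratin FPKM, and the lowest share was in p21TKO replicate 2, the library with the most Krt7 and Krt19. Krt80, a type II keratin outside the 9 and chosen after its values were seen, had 37 reads in all and was also separated, at 0.00704 to 0.0218 FPKM in DKO and 0.0323 to 0.130 FPKM in p21TKO.

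Krt7 and Krt19, the keratins that cholangiocytes have and hepatocytes largely lack, showed the largest read ratios of the 9 genes, at few reads. Krt7 (ENSMUSG00000023039, chromosome 15, 101411043 to 101430313, plus strand) had 1, 3 and 1 reads in the DKO libraries against 13, 57 and 17 in p21TKO, which is 0.00590, 0.0198 and 0.00638 FPKM against 0.0952, 0.352 and 0.0891 FPKM. All 3 DKO libraries were at or below 3 reads, and p21TKO replicate 2 held most of the p21TKO reads. The pooled reads were 5 and 87, and their ratio, scaled here and below to the summed FPKM denominators of each group, was 17 (exact 95% interval 7.01 to 53.7, counting error only). In the voom fit the log2 difference was 3.55 (SE 0.90, unadjusted p = 0.0037, limma voom adjusted p = 0.463), and it lay between 2.95 and 3.94 with any single library left out.

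Krt19 (ENSMUSG00000020911, chromosome 11, 100140810 to 100148665, minus strand) stood at 0.0673, 0.326 and 0.170 FPKM in DKO (3, 13 and 7 reads) and at 1.31, 3.03 and 0.379 FPKM in p21TKO (47, 129 and 19 reads). The groups were separated, but p21TKO replicate 3 and DKO replicate 2 differed only 1.16-fold. Pooled reads were 23 and 195, a depth-scaled ratio of 8.28 (exact 95% interval 5.36 to 13.4, counting error only). The voom difference was 2.75 on the log2 scale (SE 0.93, unadjusted p = 0.0172, limma voom adjusted p = 0.4999). With 1 library left out it ranged from 2.06 (p21TKO replicate 2 removed) to 3.51 (p21TKO replicate 3 removed).

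Krt23, the type I keratin low in normal liver, did not follow Krt7 and Krt19. Krt23 (ENSMUSG00000006777, chromosome 11, 99477974 to 99493137, minus strand) stood at 0.0266, 0.475 and 0.489 FPKM in DKO (1, 16 and 17 reads) and at 0.429, 0 and 0.118 FPKM in p21TKO (13, 0 and 5 reads). It was undetected in p21TKO replicate 2, where Krt7 and Krt19 were highest, and 3 reads there would have given 0.0835 FPKM. Its 3 highest libraries were those with Y-linked transcripts, DKO replicates 2 and 3 and p21TKO replicate 1, and the part of sex in this order was not tested. Pooled reads were 34 and 18, a depth-scaled ratio of 0.517 (exact 95% interval 0.275 to 0.942, counting error only), and the voom difference of -1.30 on the log2 scale (SE 1.43, limma voom adjusted p = 0.788) turned to 0.15 without p21TKO replicate 2.

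Sox9, the ductal transcription factor, was higher in each p21TKO library than in any DKO library, and did not pass the test. Sox9 (ENSMUSG00000000567, chromosome 11, 112782224 to 112787760, plus strand) stood at 0.312, 0.450 and 0.239 FPKM in DKO (31, 40 and 22 reads) and at 0.987, 1.31 and 0.733 FPKM in p21TKO (79, 124 and 82 reads). The lowest p21TKO library was 1.63-fold above the highest DKO library. Means were 0.334 ± 0.107 and 1.01 ± 0.287 FPKM (SD, n = 3 each), and the pooled reads were 93 and 285, a depth-scaled ratio of 2.99 (exact 95% interval 2.36 to 3.83, counting error only). The voom difference was 1.56 on the log2 scale (SE 0.40, unadjusted p = 0.0041, limma voom adjusted p = 0.488). With any single library left out it lay between 1.37 and 1.74, and the smallest adjusted p, 0.0696, came without p21TKO replicate 1.

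Epcam, the adhesion molecule of duct cells, was also higher in each p21TKO library, at very few reads. Epcam (ENSMUSG00000045394, chromosome 17, 87635979 to 87651129, plus strand) stood at 0.152, 0.106 and 0.0615 FPKM in DKO (8, 5 and 3 reads) and at 0.212, 0.655 and 0.219 FPKM in p21TKO (9, 33 and 13 reads). Only 1 read set the nearest libraries apart, 9 in p21TKO replicate 1 against 8 in DKO replicate 1, from libraries of different depth. Pooled reads were 16 and 55, a depth-scaled ratio of 3.36 (exact 95% interval 1.90 to 6.28, counting error only). In the voom fit the log2 difference was 1.54 (SE 0.70, unadjusted p = 0.0568, limma voom adjusted p = 0.513), with values from 1.06 (without p21TKO replicate 2) to 1.86 (without DKO replicate 1) when 1 library was left out. Epcam shares its chromosome with Cdkn1a, at a distance of 58.6 Mb.

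**Figure D2:**
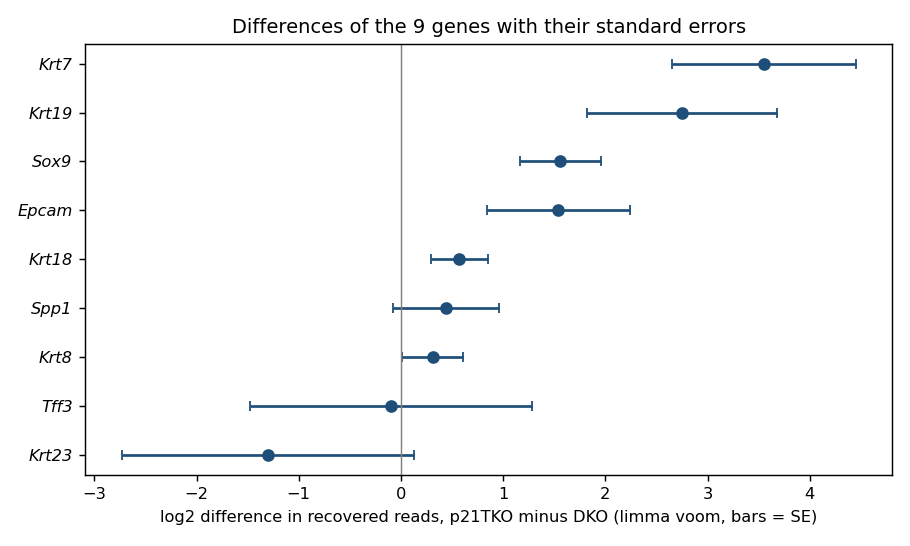
Log2 difference in recovered reads, p21TKO minus DKO, for each of the 9 genes from the limma voom fit, with standard errors as bars. Krt7, Krt19, Sox9 and Epcam lie between 1.54 and 3.55, Krt18, Spp1 and Krt8 lie between 0.31 and 0.57, Tff3 and Krt23 lie below 0, and the bars of Spp1, Tff3 and Krt23 cross 0.

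Spp1, the gene of osteopontin, fell into 2 ranges that cut across genotype. Spp1 (ENSMUSG00000029304, chromosome 5, 104435118 to 104441050, plus strand) stood at 6.62, 17.6 and 6.53 FPKM in DKO (262, 624 and 239 reads) and at 17.1, 22.0 and 5.49 FPKM in p21TKO (545, 831 and 245 reads). DKO replicates 1 and 3 and p21TKO replicate 3 were low, and the other 3 libraries were high, with nothing between. Means were 10.3 ± 6.37 and 14.9 ± 8.46 FPKM (SD, n = 3 each), and the log2 difference was 0.45 with an SE of 0.57 (limma adjusted p = 0.785). The reads in listed genes made up 86.2%, 90.2% and 84.8% of the FPKM denominator in the 3 low libraries and 99.8%, 96.3% and 99.7% in the others, and their part in the Spp1 values was not tested. The same libraries were the 3 lowest for Krt8, and Pearson's r between Krt8 and Spp1 was 0.89 over the 6 libraries.

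**Figure D3:**
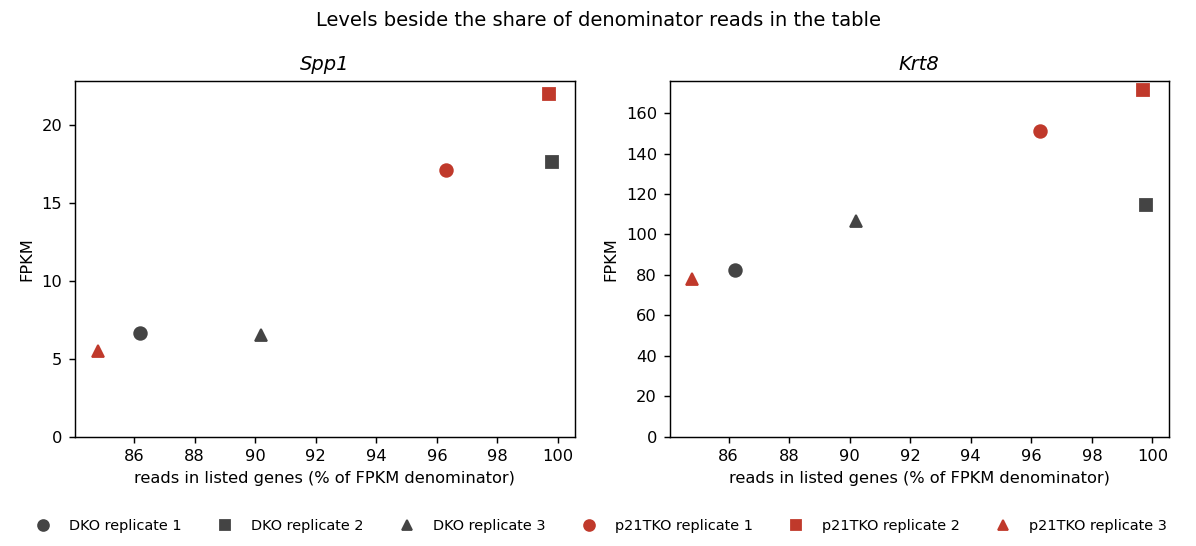
FPKM of Spp1 (left) and Krt8 (right) against the percentage of the FPKM denominator found as reads in listed genes, 1 point per library, grey for DKO and red for p21TKO. For both genes the 3 libraries at 84.8% to 90.2% are the lowest, and they come from both genotypes.

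Tff3, the trefoil peptide, varied more within DKO than any difference between genotypes. Tff3 (ENSMUSG00000024029, chromosome 17, 31125306 to 31129646, minus strand) stood at 0.675, 63.2 and 20.7 FPKM in DKO (8, 670 and 227 reads) and at 24.1, 6.54 and 5.70 FPKM in p21TKO (230, 74 and 76 reads). The DKO libraries spanned 93.5-fold and enclosed all 3 p21TKO values. The log2 difference of -0.29 (SE 1.30, limma adjusted p = 0.949) turned to 0.84 without DKO replicate 2 and to 0.76 with a sex term from Y-linked transcripts. The 3 libraries with those transcripts were the 3 highest. Within them the DKO values were 63.2 and 20.7 FPKM and the p21TKO value 24.1 FPKM. Within the libraries lacking those transcripts the DKO value was 0.675 FPKM and the p21TKO values 6.54 and 5.70 FPKM. Tff3 lies 2.03 Mb from Cdkn1a on chromosome 17.

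How the 9 genes varied together is described by Pearson's r over the 6 libraries, which share scaling and, for 5 of the genes, few reads. Krt7 had an r of 0.98 with Epcam, 0.94 with Krt19 and 0.89 with Sox9, and Krt19 had 0.93 with Sox9 and 0.90 with Epcam. These 4 genes shared p21TKO replicate 2 as their highest library. Krt8 had an r of 0.89 with Spp1 and 0.86 with Krt19. Krt23 and Tff3 had an r of 0.87, and Krt23 ran opposite to Epcam at -0.66. Genes elsewhere in the table whose pattern was most like Krt18 were Sars (0.996), Rpl29 (0.993) and P3h1 (0.984). Most like Krt8 were Mroh1 (0.991), Uap1l1 (0.975) and Vim (0.969), an intermediate filament gene of mesenchymal cells at 1.79 to 4.09 FPKM. Klf16 (0.978), Tmed1 (0.976) and Hsd17b10 (0.968) were nearest to Spp1, and Smg6 (0.989), Dap3 (0.988) and Zfpl1 (0.981) to Tff3. These were picked as the highest values of r among all genes tested, so they carry no test.

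Other cholangiocyte genes did not move as 1 group. Of 28 further markers listed, 11 were tested and none were called, with 3 higher and 8 lower in p21TKO and a median log2 difference of -0.08, against 50.2% higher and a median of 0.002 over all genes tested. In the voom fit, 15 of the 25 with at least 10 reads were higher and 10 lower. Their median was 1.01, against -0.01 over all genes in that fit. Of these 25, 3 were separated, all higher in p21TKO, and none were separated lower. Over all genes with at least 10 reads, 7.15% were separated higher and 8.42% lower. The separated genes, which are named because of their values, were all low. Muc1, a membrane mucin of the duct surface, stood at 0.0887, 0 and 0.0575 FPKM in DKO and 0.154, 1.02 and 0.189 FPKM in p21TKO. Bicc1, an RNA-binding protein needed for normal duct structure, stood at 0.133 to 0.207 FPKM and 0.312 to 0.492 FPKM, and Ddr1, an epithelial collagen receptor, at 0.175 to 0.217 FPKM and 0.379 to 0.575 FPKM. The voom differences were 3.03, 1.25 and 1.27 on the log2 scale, each with a limma voom adjusted p between 0.4999 and 0.5016.

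Better measured duct genes overlapped between the genotypes. Aqp1, a water channel of cholangiocytes and also of endothelium, stood at 9.68, 4.41 and 6.61 FPKM and at 5.05, 57.7 and 26.2 FPKM (log2 difference 1.49, limma adjusted p = 0.567), with p21TKO replicates 2 and 3 high and replicate 1 within the DKO range. Cdh1, the epithelial cadherin, differed by 0.61 (limma adjusted p = 0.531), Dsg2, a desmosomal cadherin, by -0.63 (limma adjusted p = 0.542), and Onecut1, a factor of both hepatocytes and ducts, by -1.13 (limma adjusted p = 0.597). Cftr, the chloride channel of large ducts, had 5 reads in all libraries together and Cldn4, a tight junction claudin, had 6, so neither could be compared at this depth.

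**Figure D4:**
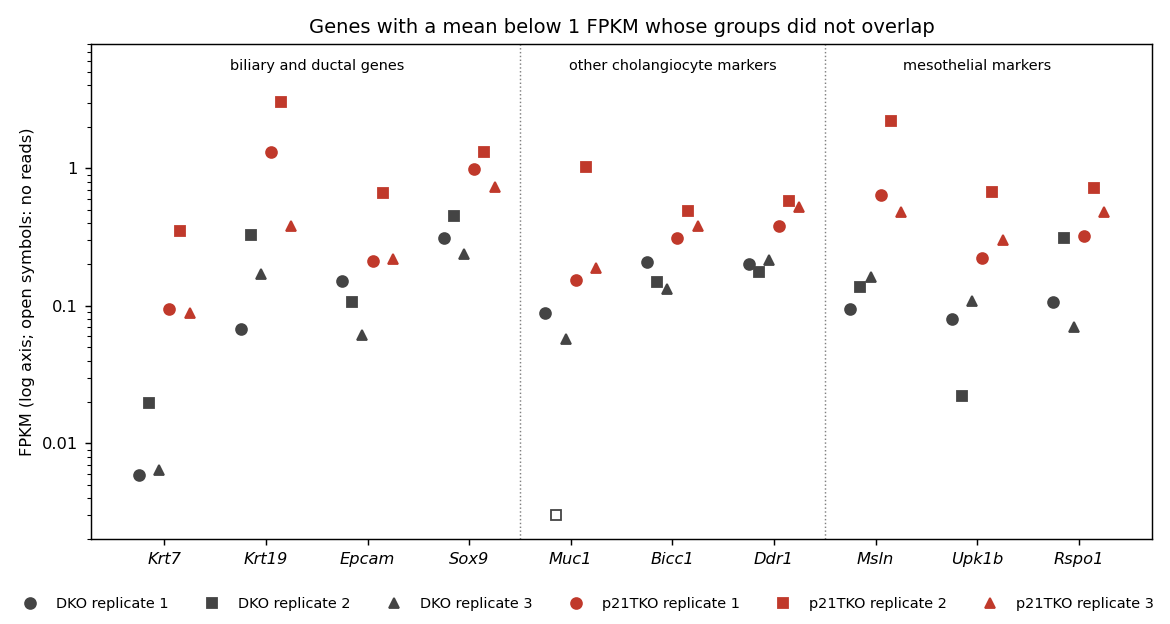
FPKM on a log axis, per library, of 10 genes with a mean below 1 FPKM whose groups did not overlap: Krt7, Krt19, Epcam and Sox9, then 3 further cholangiocyte markers, then 3 mesothelial markers; grey is DKO, red is p21TKO, and the open symbol is a library with no read, placed at the foot of the axis. In each of the 10 genes p21TKO replicate 2 is the highest point, and the genes were chosen for the separation shown.

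Krt7, Krt8, Krt18 and Krt19 are also made by mesothelium, the cell layer on the liver surface, so its markers are given beside them here. All 10 mesothelial markers listed had at least 10 reads, and all 10 were higher in p21TKO in the voom fit, with a median of 1.09. Among them 3 were separated higher and none lower. Over all genes 49.1% were higher and 7.15% separated higher. Other lists shared this direction: 12 of 12 endothelial, 12 of 12 neutrophil and 17 of 20 macrophage markers were higher, against 8 of 18 hepatocyte markers. Their medians were 0.96, 3.3, 0.67 and -0.1. The summed level of the mesothelial markers was 1.32 to 2.23 FPKM in DKO and 2.67 to 6.98 FPKM in p21TKO, highest in p21TKO replicate 2. Msln, the defining mesothelin gene, stood at 0.0951, 0.137 and 0.162 FPKM in DKO and 0.641, 2.19 and 0.482 FPKM in p21TKO. Upk1b and Rspo1 were the other separated markers, at 0.0223 to 0.108 FPKM against 0.223 to 0.667 FPKM and at 0.0697 to 0.312 FPKM against 0.320 to 0.719 FPKM. The part of mesothelium in the Krt7, Krt19, Epcam and Sox9 values was not tested.

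Other cell types also differed between libraries. Summed macrophage and Kupffer cell markers stood at 139.6 to 238 FPKM in DKO and 127.5 to 514 FPKM in p21TKO, neutrophil markers at 25.6 to 71.3 FPKM and 27.96 to 2196 FPKM, and endothelial markers at 17.98 to 28.1 FPKM and 19.3 to 84.9 FPKM. For each of these 3 sums p21TKO replicate 2 was the highest library, and p21TKO replicate 1 lay below at least 2 of the DKO libraries. The neutrophil sum held much Lcn2, which is also listed as an acute phase gene. Lcn2 stood at 60.5, 37.6 and 12.2 FPKM in DKO and at 2.38, 1640 and 468 FPKM in p21TKO. S100a8 and S100a9 in p21TKO replicate 1 lay above DKO replicates 1 and 3 instead, and the low neutrophil markers were mixed. Krt7, Krt19, Epcam and Sox9 were above every DKO library in p21TKO replicate 1, which follows from their being separated and says nothing about cell types. Macrophages make Spp1 too, and their summed markers stood at 191, 127.5 and 514 FPKM in the 3 libraries where Spp1 was high (DKO replicate 2, p21TKO replicates 1 and 2) and at 238, 139.6 and 288 FPKM in the 3 where it was low (DKO replicates 1 and 3, p21TKO replicate 3). Summed stellate cell and fibroblast markers stood at 49.7 to 76.6 FPKM in DKO and 85.5 to 98.6 FPKM in p21TKO. Much of that gap lay in Ecm1 (means 20.2 and 37.7 FPKM) and Dcn (11.6 and 24.9 FPKM). Of the 15 markers with at least 10 reads, 8 were higher and 7 lower in the voom fit, with a median of 0.08. There, 3 were separated higher and 2 lower. The part of these cells, and that of the other cell types, was not tested. Of the markers of organs beside the liver, 7 of 14 pancreatic acinar genes and 9 of 14 intestinal genes had no read in any library. Of 10 gallbladder and extrahepatic duct markers, 2 had no read, and the 2 tested went 1 higher and 1 lower. Dmbt1 of that list, picked by its values, stood at 0.00539, 0.0120 and 0.227 FPKM in DKO and at 0, 3.69 and 0.00958 FPKM in p21TKO. Carry-over of neighbouring tissue was not tested.

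No partner gene of the keratins was called. Of 20 listed plakins, desmosomal partners, filament-binding proteins and further keratins, 8 were tested, 7 were higher in p21TKO and 1 lower, and the median log2 difference was 0.20. Dsp, the desmoplakin that anchors keratin filaments to desmosomes, was the lower one, at -0.55 (limma adjusted p = 0.537). Jup (0.37), Pkp2 (0.33) and Sqstm1 (0.24) were higher by the log2 differences shown. Jup and Pkp2 are desmosomal plaque proteins. Sqstm1 encodes p62, the adaptor that collects with Krt8 and Krt18 in hepatocyte inclusions, and it stood at 76.4, 109 and 96.1 FPKM in DKO and 123, 120 and 90.0 FPKM in p21TKO.

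The receptors and enzymes of osteopontin split evenly, with 5 of 10 tested genes higher, 5 lower and none called (median 0.18). Itgb3, the integrin chain of the vitronectin receptor, stood at 0.585, 0.307 and 0.183 FPKM in DKO and at 0.578, 3.45 and 4.49 FPKM in p21TKO (log2 difference 1.32, limma adjusted p = 0.523). Thbd, the thrombomodulin gene, stood at 0.961, 0.462 and 0.471 FPKM and at 0.735, 9.27 and 8.99 FPKM (1.8, limma adjusted p = 0.523). For both genes p21TKO replicates 2 and 3 were high and replicate 1 was not, a different order from that of Spp1. Mmp7, a protease that cleaves osteopontin and is known from injured ducts, was listed at 0 in all DKO libraries and at 0.0484, 6.08 and 2.01 FPKM in p21TKO. Its groups did not overlap, and it was the 1 separated gene among the 13 of this list with at least 10 reads. Of all genes with at least 10 reads, 7.15% were separated with p21TKO higher. The separation of Mmp7 rests on the 0.0484 FPKM of p21TKO replicate 1. Its 208 reads were all in p21TKO, so it passed the limits on reads and level through that group only. The log2 difference was 1.49 with an SE of 0.63 (limma adjusted p = 0.523).

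Epcam's tight junction partners and cleaving enzymes had 8 of 13 tested genes higher, 5 lower, none called and a median log2 difference of 0.09. Among them, F11r, a junctional adhesion molecule, differed by 0.39 (limma adjusted p = 0.595). Psen2 and Ncstn, parts of the gamma-secretase that cleaves Epcam within the membrane, differed by -0.33 and 0.23, and Bace1, a protease that cuts Epcam outside the cell, by -0.23. Ncstn was separated, at 10.3 to 11.1 FPKM in DKO and 11.2 to 14.5 FPKM in p21TKO.

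Regulators of Sox9 and of ductal fate held 11 tested genes, 5 higher, 6 lower and none called, with a median of -0.01. Notch signalling turns on Sox9 and Hes1 in duct precursors. Hes1 stood at 1.51, 2.58 and 1.08 FPKM in DKO and at 4.03, 2.84 and 4.84 FPKM in p21TKO, separated like Sox9. It differed by 0.86 on the log2 scale with an SE of 0.25 (limma adjusted p = 0.523). The groups overlapped for Notch1, Notch2, Jag1, Rbpj, Hey1 and Heyl, whose voom differences were 0.81, -0.30, -0.02, -0.05, 0.80 and 0.49. In this list 4 of 19 genes with at least 10 reads were separated higher, against 7.15% of all genes. Notch activity was not tested. p21TKO replicate 2 was the lowest p21TKO library for Hes1 and the highest for Sox9. Cebpa, a hepatocyte factor that opposes ductal fate, stood at 165, 211 and 128 FPKM in DKO and at 175, 87.2 and 46.7 FPKM in p21TKO (-0.87, limma adjusted p = 0.580), and Foxa1 differed by -0.31. Hnf4a, a central hepatocyte factor, was also separated higher, at 118 to 147 FPKM in DKO and 151 to 164 FPKM in p21TKO (0.23, limma adjusted p = 0.731). Targets of YAP, the Hippo pathway effector that favours ductal fate, gave 4 of 9 tested genes higher and 5 lower with a median of -0.06 and none called or separated. Ccn2, a matricellular protein, differed by 0.94 (limma adjusted p = 0.523) and Amotl2, a partner of YAP, by -0.57 (limma adjusted p = 0.531), and Axl and F3 differed by 0.45 and -0.36.

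The other trefoil and mucus genes listed beside Tff3 were all low. None of the 15 listed trefoil factors, mucins and mucus proteins reached the filter on low values, 6 had no read in any library, and their summed level was 0.137 to 0.355 FPKM in DKO and 0.212 to 1.92 FPKM in p21TKO. Tff1 and Tff2, the other trefoil peptides, had 9 and 10 reads over all libraries. In DKO replicate 2, which had 670 Tff3 reads, Tff1 stood at 0.132 FPKM, Fcgbp of the same list at 0.00443 FPKM and Tff2 at 0. Muc2, Muc5ac and Muc5b had no read in any library.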

How the data were processed

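PolyA RNA libraries of liver were grouped by the genotype in the labels, 3 DKO and 3 p21TKO. TRIzol was used for RNA and a NEBNext Ultra kit for the libraries, per the labels' protocols. The table the authors deposited holds FPKM, 1 column for each library. The submitters' processing notes list DESeq2 1.20.0, featureCounts 1.5.0-p3, HISAT2 2.0.5, fastp and CASAVA 1.8, with no role or order. They also name human builds (GRCh38, hg38) for mouse gene identifiers, so the genome build used is unsettled. Strandedness was not given in the sources used here. Without known strand, reads from overlapping genes cannot be told apart, but the genes overlapping Krt7, Krt8 and Spp1 stood below 0.1 FPKM.

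Since the unit is FPKM, the main test was limma 3.58.1 in R 4.3.3 (two-sided, with a trend) on log2(FPKM + 1), for genes averaging at least 1 FPKM, with Benjamini-Hochberg adjustment over all of them; an adjusted p under 0.05 was called. A log2 difference on that scale understates the change of low genes. Positions and exon lengths are from GENCODE M21 (GRCm38), matched for 55480 of 55573 genes. FPKM times exon length gave whole reads, within 0.02, for 99.2% to 99.3% of values per library. Limma voom on those reads called 2 genes with the same filter and 5 among genes with at least 10 reads in all, an alternative added after the values were seen. Intervals and read limits cover counting error only. The limma test on log2(FPKM + 1) was tried on simulated data for genes averaging at least 1 FPKM. The voom fit was not.

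The 9 genes and all lists were chosen with earlier results of these data known. Named outside the 9 by rule are up to 4 tested genes per list with the smallest p, and the targeted genes. The 3 genes most like each tested gene of the 9 by Pearson's r are named too, as are genes marked as picked by their values. Further genes of the lists are named outside these rules, among them Notch1, Notch2, Jag1, Rbpj, Hey1, Heyl, Cftr, Cldn4, Tff1, Tff2, Lcn2 and Msln. Some genes of the lists are not reported here. A gene set was described by counts and medians only.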

Additional observations from a re-analysis of the deposited data

How the results depend on the processing

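The direction of Krt18, Krt8 and Spp1 was the same under all 22 alternatives each. Their log2 differences were 0.32 to 0.78, 0.11 to 0.68 and 0.07 to 1. That of Krt7, Krt19, Epcam and Sox9 was the same under 8 each. Krt18, Krt7, Krt19, Epcam and Sox9 had groups that did not overlap, so leaving out 1 library could not turn their direction. None of the 9 genes was called under any alternative, the smallest adjusted p being 0.0514 for Krt7 (limma voom, at least 10 reads, without p21TKO replicate 1). Reversed were Krt23 in the voom fit on at least 10 reads without p21TKO replicate 2 (0.15), and Tff3 with the sex term (0.76). With 1 library left out, Tff3 ranged from -1.79 to 0.84 (0.84, 0.06 and 0.05 without DKO replicate 2, without DKO replicate 3 and without p21TKO replicate 3), and in the voom fit from -1.93 to 1.22 (1.22, 0.44, 0.22 and 0.2 without DKO replicate 2, without DKO replicate 3, without p21TKO replicate 2 and without p21TKO replicate 3). The Krt8 to Krt18 ratio ranged from -0.50 to 0.10 when 1 library was left out, the last without p21TKO replicate 3. The cause of these reversals was not tested.

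Among all genes tested, 7 were called. The count was 1 with no filter (more genes tested), 4 with a mean FPKM of at least 5 (fewer genes tested), 2 with limma voom on recovered reads and 0 with the replicate block, where 588 genes had an unadjusted p under 0.05. Leaving out 1 library gave 1 to 495 genes, 495 without p21TKO replicate 1; the cause was not tested. The replicate numbers do not pair the libraries: same-numbered deviations from the group means correlated at -0.44, -0.49 and -0.07. The replicate block gave 0 of the 9 genes called and, for the Krt8 to Krt18 ratio, the same -0.26 with an exact sign-flip p of 0.75. Depth limits Krt7, Krt23, Epcam and Krt19, each with libraries of at most 3 reads.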
